A study of Mus musculus with 18 samples.

Results

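Microglia, the resident macrophages of the brain, are known as a source of secreted growth factors for neurons, glia and vessels. The 8 factors described here are Igf1, Bdnf, Pdgfa, Pdgfb, Vegfa, Hgf, Osm and Tgfa. They were chosen as genes and not by their levels, and every probe set that names 1 of them and no other gene was taken. That gave 19 probe sets among the 34958 on the array that name a single gene (8 of 18194 genes).

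Gene expression was measured on 18 Affymetrix Mouse430_2 arrays, in Cx3cr1-GFP+ cells sorted by FACS from pooled hippocampi of C57BL/6 mouse embryos at E17.5, with sex recorded as unknown. Of these, 4 arrays came from embryos under maternal inflammation by LPS (lipopolysaccharide, a bacterial wall component) and 4 from embryos of the PBS control. Another 4 came from untreated DAP12-/- mutants (DAP12KO). The remaining 6 were their controls, labelled untreated or wild type (UT, DAP12+/+). DAP12, encoded by Tyrobp, is the signalling adaptor of microglial surface receptors such as Trem2. All groups share the GFP reporter used for the sort, which marks other Cx3cr1-expressing macrophages too. RNA was pooled per pregnant dam, per the series' design text, so an array is taken as 1 dam. No source used here gives the dose, route or timing of LPS. Each label ends in a year, written here as in the labels: _2008, _2010, _2012 or _2013. The LPS arrays are from _2008 (1), _2010 (2) and _2013 (1), as are the PBS arrays, the DAP12KO arrays are all from _2013, and the UT arrays are from _2012 (2) and _2013 (4). What the year stands for is not given.

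Igf1, insulin-like growth factor 1, signals through the receptor tyrosine kinase Igf1r and is held in the tissue by binding proteins. Bdnf is a neurotrophin that signals through TrkB, and Pdgfa and Pdgfb are chains of platelet-derived growth factor, which acts on oligodendrocyte precursors and pericytes. Vegfa drives vessel growth and is induced by low oxygen, Hgf is the ligand of Met, Osm is a cytokine of the IL-6 family, and Tgfa is a ligand of the EGF receptor.

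Windows from a promoter table are shown for Igf1, the factor read far above the floor on every array, and for Vegfa, which mostly stood at a constant low value. RefSeq's table (GRCm38.p6) held windows of 300 bases, most of them upstream of a gene's start, for 6 of the 8 factors, 15 windows in all, and none for Osm and Pdgfb. Capitals mark matches, on either strand, to 5 motifs searched: GAGGAA (the PU.1 and ETS core), TGANTCA (AP-1), ACGTG (the hypoxia response core), TTCNNNGAA (the STAT palindrome) and TTGCNNAA (C/EBP). N stands for any base. The matches in the windows printed do not overlap. The Igf1 window lies at chr10:87860861-87861160 on the plus strand, and the Vegfa windows at chr17:46032328-46032627 and chr17:46025114-46025413 on the minus strand. On that strand the second Vegfa window lies downstream of the first. Its match is therefore not read as one upstream of the gene's first start.
Igf1: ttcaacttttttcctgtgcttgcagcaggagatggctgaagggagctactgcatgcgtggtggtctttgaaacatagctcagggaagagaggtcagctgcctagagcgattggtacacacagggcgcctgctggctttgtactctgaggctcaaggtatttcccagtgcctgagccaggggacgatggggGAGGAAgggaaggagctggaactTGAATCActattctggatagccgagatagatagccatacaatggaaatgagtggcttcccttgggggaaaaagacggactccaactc
Vegfa, first window: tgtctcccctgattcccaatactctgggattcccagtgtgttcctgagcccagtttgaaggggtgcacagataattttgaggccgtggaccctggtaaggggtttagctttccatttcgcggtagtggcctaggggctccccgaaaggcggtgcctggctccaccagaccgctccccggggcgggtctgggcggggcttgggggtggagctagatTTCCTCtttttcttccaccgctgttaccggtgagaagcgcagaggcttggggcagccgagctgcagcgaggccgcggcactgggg
Vegfa, second window: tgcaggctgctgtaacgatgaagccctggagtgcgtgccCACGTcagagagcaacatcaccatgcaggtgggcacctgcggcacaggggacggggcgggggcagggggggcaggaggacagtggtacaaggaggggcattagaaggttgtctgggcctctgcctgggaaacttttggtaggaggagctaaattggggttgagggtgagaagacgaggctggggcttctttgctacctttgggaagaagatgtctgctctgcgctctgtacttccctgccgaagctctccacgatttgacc
The Igf1 window holds 1 GAGGAA and 1 TGANTCA match. The latter has A at the free letter and is not read as an AP-1 site. The first Vegfa window holds 1 GAGGAA match and the second 1 ACGTG match. Over the 15 windows, GAGGAA was found in 9 (of 5 genes), ACGTG in 3, TGANTCA in 2, TTCNNNGAA in 1 and TTGCNNAA in 0. Bdnf had more of these 15 windows, and more of the 9 with GAGGAA, than any other factor, so the counts do not weigh genes equally. Of all 32841 windows in the table, 28.3% hold GAGGAA, 19.6% ACGTG, 7.81% TGANTCA, 8.30% TTCNNNGAA and 10.8% TTGCNNAA. Windows of 1 gene can overlap, and a match is a description of the letters only.

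The deposited values are log2 expression values. Their lowest value, 2.19, is shared by all 18 arrays. A value under 2.49, the 40th percentile of all probe set means, is called near the floor here. A probe set is called expressed in untreated microglia if all 6 UT arrays are at or above that, mixed if 1 to 5 are, and near the floor if 0 are, and a gene takes the highest call among its probe sets. By this rule 6 factors were expressed in UT microglia: Igf1, Osm, Pdgfa, Pdgfb, Tgfa and Hgf. Vegfa was mixed and Bdnf was near the floor. Such a call is one of the RNA of the sorted pool and does not assign it to a cell type. On the UT arrays the mean over 17 neuron markers was 6.44 to 8.14, and over 12 neural progenitor markers 5.86 to 7.51. The part of RNA from other cells in these calls was not tested. The rule as planned, the call of a gene's highest probe set, can also be read as that of the probe set of highest mean. By that reading 5 factors were expressed and Hgf was mixed. Of the 19 probe sets, 13 were expressed, 3 mixed and 3 near the floor, and the share expressed was 68.4% against 52.2% of all single-gene probe sets. At a threshold of the 60th percentile (4.74) 8 probe sets and 5 genes remained expressed, without Hgf.

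Many probe sets hold exactly the same low value on several arrays. Such a tied value on 3 or more arrays occurred in 10 of the 19 probe sets (52.6%) and in 57.5% of all single-gene probe sets. It stood above the table's lowest value in 7 of the 19. Hgf owes its call to a probe set at such a value, as described for Hgf. Counting only UT arrays above the tied value, a rule added after the data were seen, left 9 probe sets expressed, 8 of the 13 and 1 other, 1451866_a_at of Hgf. The same 6 genes were called, but Hgf through that probe set, which has no tied value and 2 UT arrays under 2.49, and no longer through 1425379_at.

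No factor passed the test in either comparison. With limma and Benjamini-Hochberg adjustment over 22512 probe sets, 0 of the 15 factor probe sets tested were called at 0.05 in LPS minus PBS, where 0.0267% of all probe sets were called (6, of which 1 higher and 5 lower). In DAP12KO minus UT 0 of 15 were called and 0% of all (0 of 22512). In the difference between the responses 0 of 15 were called and 0.00444% of all (1, lower). At an unadjusted p under 0.05 the factor probe sets numbered 1, 1 and 2 in these contrasts, and all probe sets tested numbered 2774 (12.3%), 1234 (5.48%) and 1844 (8.19%). The factor probe sets' median log2 difference was 0.11 in LPS minus PBS, with 11 of 15 above 0. Over all probe sets tested it was −0.10, with 43.5% above 0. In DAP12KO minus UT the factors' median was −0.21, with 6 of 15 above 0, and over all probe sets 0.02, with 51.3% above 0. The other 4 factor probe sets, both of Bdnf and 1 each of Vegfa and Hgf, had means under the filter and were not tested. For every factor probe set the LPS values overlapped the PBS values, and the DAP12KO values overlapped the UT values. Of all probe sets tested, 2.23% had no overlap between LPS and PBS and 0.84% none between DAP12KO and UT.

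**Figure D1:**
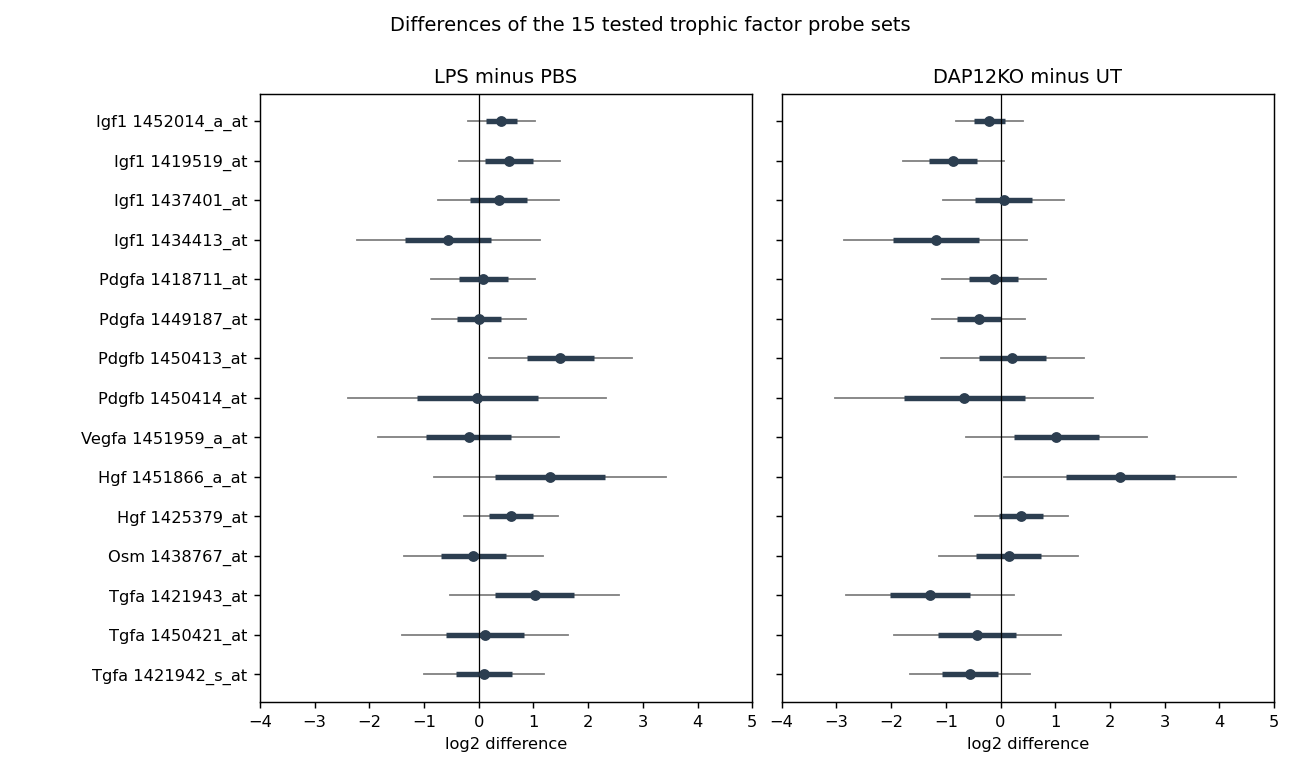
Log2 differences of the 15 tested factor probe sets, LPS minus PBS on the left and DAP12KO minus UT on the right. Points are the limma estimates over 18 arrays, thick bars the standard error and thin bars the 95% confidence interval. The Pdgfb 1450413_at interval (LPS minus PBS) and the Hgf 1451866_a_at interval (DAP12KO minus UT) lie above 0 before adjustment, and no adjusted p was under 0.05.

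Before the factors are taken in turn, the 2 arrays that stood furthest apart in cell type markers are described. The PBS arrays of _2010 had mean log2 values of 11.12 and 11.47 over the 17 microglia markers tested of 18, against 12.43 to 13.56 on the other 16 arrays. Their means over 17 neuron markers were 11.13 and 11.20, against 6.44 to 9.68, and over 12 neural progenitor markers 10.86 and 10.88, against 5.86 to 8.71. Pericyte and stromal markers (8 tested of 10, Lum near the floor on all arrays) averaged 7.04 and 7.40 there, against 2.39 to 6.00. Choroid plexus markers (2 tested of 8) averaged 8.72 and 10.07 there, against 2.34 to 7.19. Oligodendrocyte precursor markers (3 tested of 8) averaged 5.25 and 6.83 there, against 2.19 to 2.64. These means leave out Kcne2, Aqp1 and Kl (choroid plexus) and Sox10 and Gpr17 (oligodendrocyte precursor), which were near the floor on all 18 arrays. Endothelial markers (4 of 11) lay between 3.54 and 5.54 on all 18 arrays, and the means over monocyte and neutrophil, megakaryocyte and platelet, mast cell and erythroid markers (2 or 3 tested each) were at most 5.33. The LPS arrays of _2010 came next to the PBS arrays of that year in the microglia, neuron, progenitor and stromal means. They had 12.56 and 12.43 for microglia, 9.51 and 9.68 for neuron, 8.71 and 8.39 for progenitor and 5.75 and 6.00 for stromal markers. Border-associated macrophage markers (8 of 9) averaged 8.46 to 9.17 in DAP12KO arrays and 8.48 to 11.04 in UT arrays. The 3' minus 5' difference of the Gapdh control probe sets, a measure of RNA integrity, was 2.01 to 3.33 on the _2008 and _2010 arrays and 0.89 to 1.20 on the _2013 arrays, apart from UT replicate 2 of _2013 at 2.23. On the UT arrays of _2012 it was 1.31 (replicate 3) and 2.77 (replicate 4). Tyrobp (1450792_at) read 13.75 to 14.23 in the arrays labelled DAP12KO and 14.29 to 14.55 in UT arrays, a difference of −0.60 ± 0.13 (SE, limma adjusted p = 0.480). These groups do not overlap. Whether this probe set lies within the deleted part of the gene is not given, so it does not settle the labels.

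Igf1, which supports the survival and growth of neurons, was read far above the floor by all 4 of its probe sets on all 18 arrays. Its brightest probe set, 1452014_a_at, had 12.03 (_2008), 12.31 and 12.43 (_2010) and 12.90 (_2013) in LPS arrays, and 12.90 (_2008), 11.13 and 11.58 (_2010) and 12.41 (_2013) in PBS arrays. The same probe set had 12.36, 12.20, 12.87 and 12.66 in DAP12KO arrays, and 13.34 and 13.42 (_2012) and 12.93, 12.13, 12.88 and 12.97 (_2013) in UT arrays. The 2 PBS arrays of _2010 were the lowest of all 18, and the 2 UT arrays of _2012 the highest. Group means were 12.42 ± 0.36 in LPS, 12.01 ± 0.80 in PBS, 12.52 ± 0.30 in DAP12KO (SD, n = 4 each) and 12.95 ± 0.46 in UT (SD, n = 6). In order of level UT came first, then DAP12KO, LPS and PBS, and no neighbours in that order differed by more than the larger of their SDs.

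**Figure D2:**
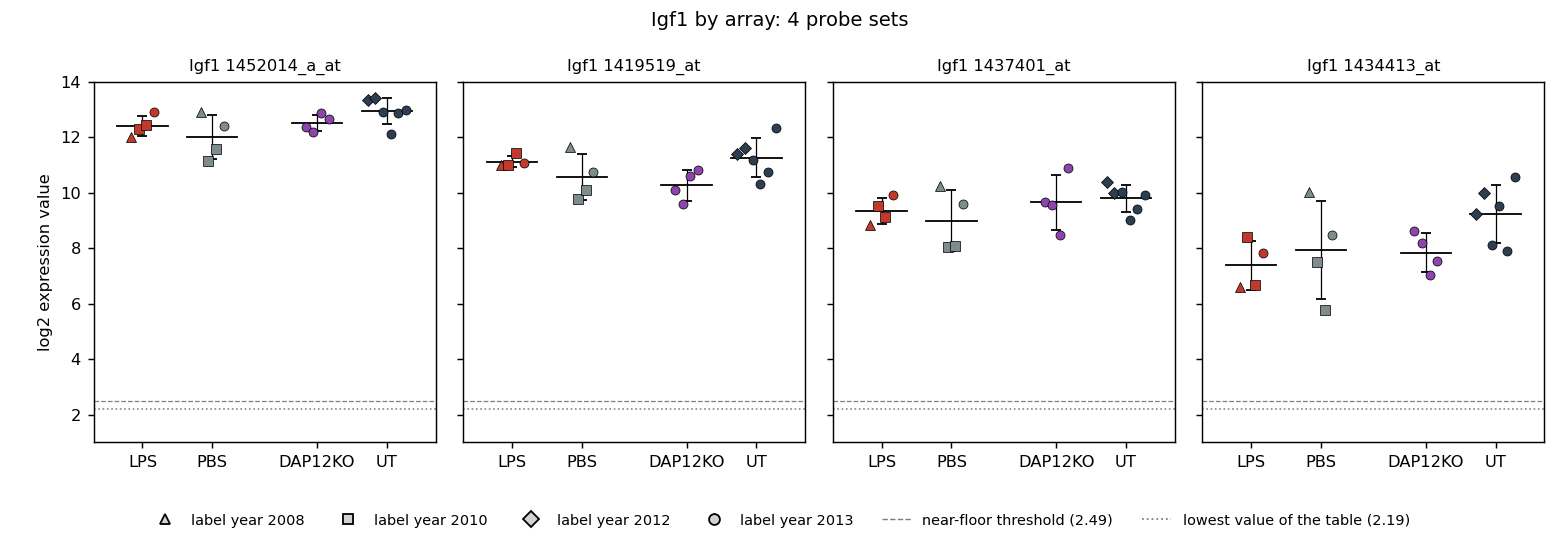
Igf1 on each array, 1 panel per probe set, with the log2 expression value on the y axis and the groups LPS, PBS, DAP12KO and UT on the x axis. Points are arrays with the marker shape giving the label year, lines and bars are the mean and SD, the dashed line is the near-floor threshold and the dotted line the lowest value of the table. All 4 probe sets stand above both lines on every array, from 5.78 to 13.42.

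The Igf1 difference between LPS and PBS depended on the year. For 1452014_a_at it was 0.41 ± 0.29 log2 in the fit (SE, 95% interval −0.20 to 1.03, limma adjusted p = 0.595). Within years it was −0.87 in _2008, 1.02 in _2010 and 0.49 in _2013. Thus the 1 LPS array of _2008 lay below its PBS array and the other 3 lay above the PBS mean of their year. The probe sets 1419519_at and 1437401_at had the same order of signs, with −0.65, 1.28 and 0.32 and with −1.40, 1.26 and 0.32. The dimmest, 1434413_at, had −3.41, 0.90 and −0.63. All 4 were positive in _2010, the year whose PBS arrays were low in microglia markers and high in neuron markers. The part of that cell make-up in the Igf1 difference was not tested. Without these 2 PBS arrays the 4 differences were −0.19 ± 0.35, −0.16 ± 0.59, −0.54 ± 0.69 and −2.02 ± 0.99 log2 (SE, lowest limma adjusted p = 0.431). With the year as a term the LPS arrays of _2010 then add nothing to the difference. It rests on 1 LPS and 1 PBS array in each of _2008 and _2013. In RNA from many cells, fewer microglia and less Igf1 RNA per microglial cell cannot be told apart.

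**Figure D3:**
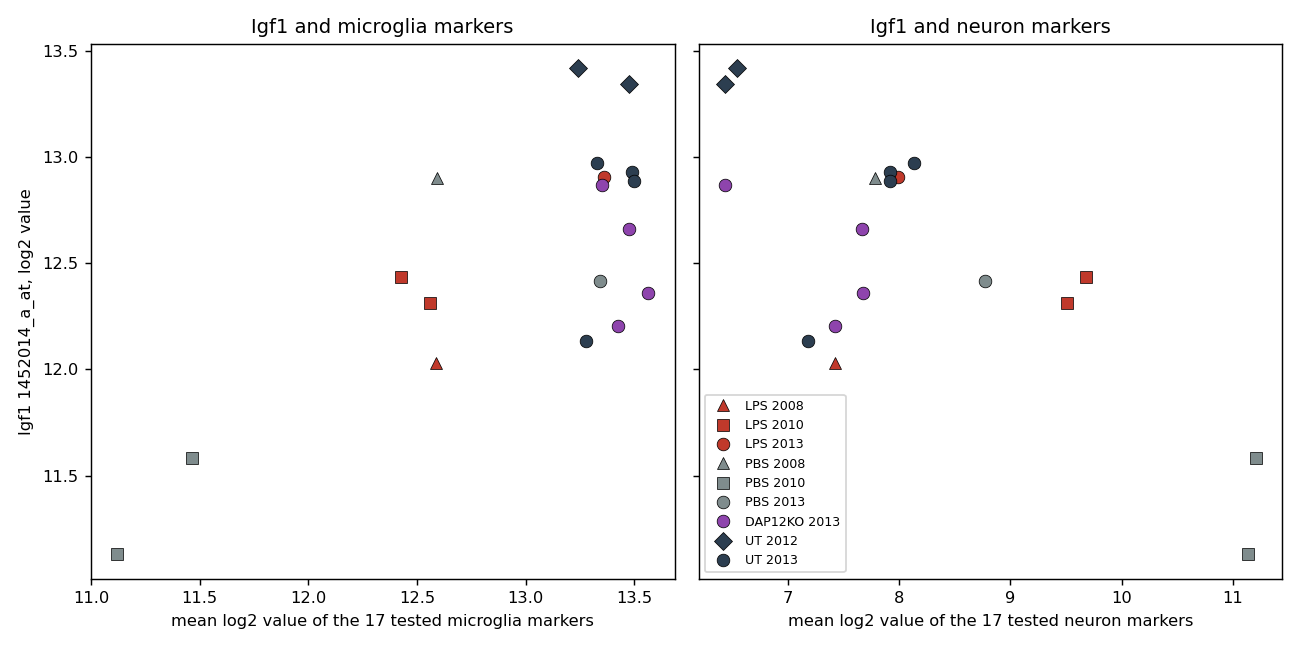
Igf1 (1452014_a_at, log2 value, y axis) on each array against the mean log2 value of 17 microglia markers (left) and of 17 neuron markers (right). Colour gives the group and marker shape the label year. The 2 PBS arrays of _2010 sit apart, at 11.13 and 11.58 for Igf1, with the lowest microglia means and the highest neuron means.

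In DAP12KO arrays, 1419519_at read 10.09, 9.58, 10.59 and 10.83, against 11.40 and 11.60 (_2012) and 11.16, 10.32, 10.74 and 12.33 (_2013) in UT arrays. All 4 DAP12KO values were below the UT mean of _2013, within the UT range or under it. With the year as a term the fitted difference is that between the DAP12KO arrays and the 4 UT arrays of _2013, here −0.87 ± 0.43 log2 (SE, 95% interval −1.79 to 0.05, limma adjusted p = 0.908). Leaving out UT replicate 6 of _2013 made it −0.47. The other Igf1 probe sets gave −0.21 ± 0.29, 0.06 ± 0.52 and −1.18 ± 0.79 for 1452014_a_at, 1437401_at and 1434413_at (SE, limma adjusted p from 0.921 to 1.00). In the last of these, too, 4 of 4 DAP12KO arrays were below the UT mean of _2013, at 8.63, 8.18, 7.02 and 7.54 against 8.13, 9.51, 7.88 and 10.58 in the UT arrays of _2013. The difference between the 2 responses was 1.42 ± 0.61 log2 for 1419519_at (SE, 95% interval 0.12 to 2.73, limma adjusted p = 0.589) and 0.62 ± 0.41 for 1452014_a_at.

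The 4 Igf1 probe sets moved together across arrays, with Pearson r from 0.49 to 0.74 over the 18 arrays, and from 0.25 to 0.80 with group and year means taken out. These points share groups and years. The 3 other genes whose probe sets were most alike to 1452014_a_at were Sparc (r = 0.89), a secreted matrix protein, Myo7a (0.88), an unconventional myosin, and Tm6sf1 (0.86). With group and year means taken out, r was 0.88, 0.85 and 0.91.

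Pdgfb, the chain best known from endothelium, where it recruits pericytes, had the lowest p among the factors in LPS minus PBS. Its probe set 1450413_at had 7.75 (_2008), 5.42 and 6.48 (_2010) and 7.77 (_2013) in LPS arrays, against 6.41 (_2008), 3.43 and 5.05 (_2010) and 6.57 (_2013) in PBS arrays. Each of the 4 LPS arrays was above the PBS mean of its year, although the groups overlap across years. The difference was 1.34 in _2008, 1.71 in _2010 and 1.20 in _2013, and 1.49 ± 0.61 log2 in the fit (SE, 95% interval 0.18 to 2.80, unadjusted p = 0.0279, limma adjusted p = 0.339). Here the 2 PBS arrays of _2010 were again the lowest of all 18. Without them the difference was 1.27 ± 0.84 log2 (SE, limma adjusted p = 0.585), which rests on 1 LPS and 1 PBS array in each of _2008 and _2013. The second probe set of the gene did not have this pattern. On 1450414_at the values were 4.53 (_2008), 5.45 and 4.56 (_2010) and 5.45 (_2013) in LPS arrays, against 8.13 (_2008), 3.44 and 3.77 (_2010) and 4.76 (_2013) in PBS arrays, and the fitted difference was −0.03 ± 1.11 log2 (SE, limma adjusted p = 1.00). The 2 probe sets had r = 0.27 over the 18 arrays, and −0.02 with group and year means taken out.

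**Figure D4:**
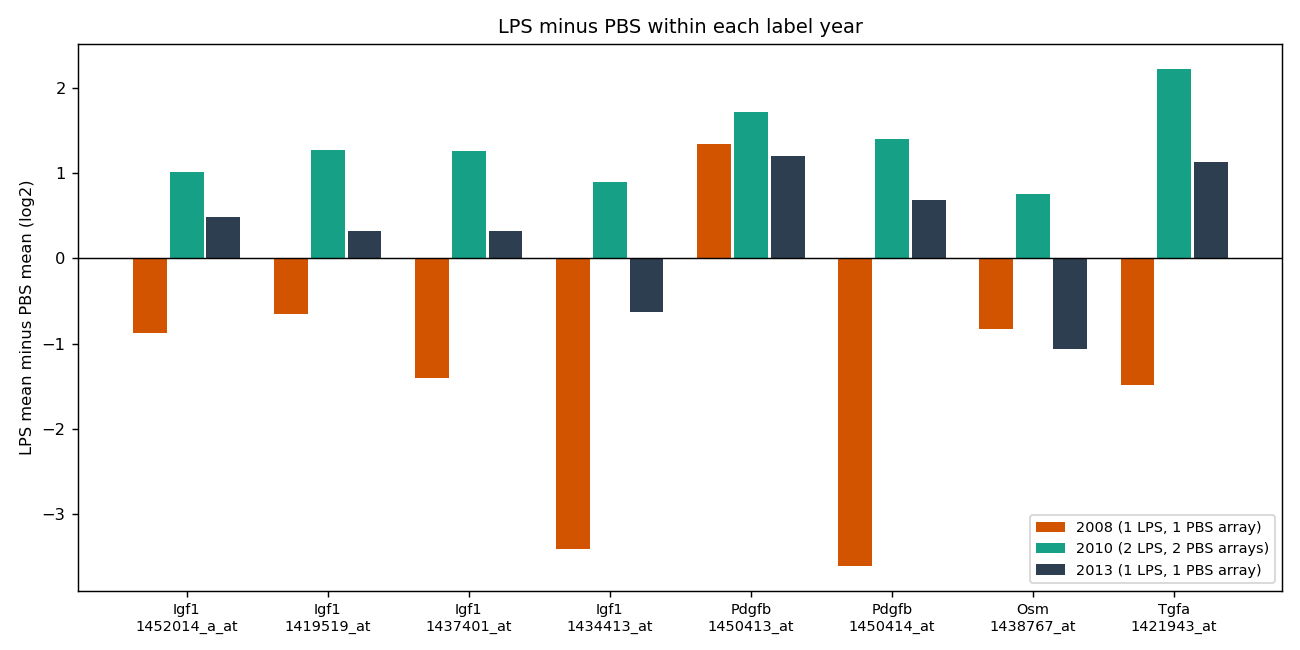
LPS mean minus PBS mean (log2, y axis) within each label year for the 4 Igf1 probe sets, both Pdgfb probe sets, Osm and the Tgfa probe set 1421943_at. Bars of _2008 and _2013 rest on 1 array per group and those of _2010 on 2. Pdgfb 1450413_at is above 0 in all 3 years (1.34, 1.71 and 1.20), and each of the other 7 probe sets shown is below 0 in at least 1 year. Hgf, whose probe set 1425379_at was also above 0 in all 3 years, is not shown.

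Pdgfb 1450413_at read 7.91, 7.02, 7.39 and 7.58 in DAP12KO arrays, against 8.67 and 8.55 (_2012) and 6.50, 8.38, 8.26 and 5.89 (_2013) in UT arrays. The DAP12KO values lie within the UT range. The difference was 0.22 ± 0.61 log2 for 1450413_at and −0.67 ± 1.11 log2 for 1450414_at (SE, limma adjusted p = 1.00 and 0.981). On the second probe set 1 DAP12KO array, replicate 4, read 8.76 and the other 3 read 4.48 to 4.60, while UT arrays spread from 4.53 to 8.16. By mean level of 1450413_at the order was UT (7.71 ± 1.20, SD, n = 6), DAP12KO (7.47 ± 0.37), LPS (6.86 ± 1.13) and PBS (5.37 ± 1.46, SD, n = 4 each). Only the step between LPS and PBS exceeded the larger SD of the pair. The most alike probe sets were those of Plekho1 (r = 0.89), the linker histone H1f2 (0.89) and Ap5b1 (0.87), and r was 0.58, 0.57 and 0.79 with group and year means taken out.

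Pdgfa, the chain that acts on oligodendrocyte precursors through Pdgfra, was expressed in UT microglia on 1418711_at. This probe set had 7.14 (_2008), 5.51 and 5.79 (_2010) and 5.83 (_2013) in LPS arrays, against 6.74 (_2008), 5.71 and 5.77 (_2010) and 5.71 (_2013) in PBS arrays. Both arrays of _2008 were the highest of the 18. DAP12KO arrays read 5.12, 5.10, 5.50 and 6.12, against 5.53 and 6.44 (_2012) and 5.43, 5.39, 5.81 and 5.71 (_2013) in UT arrays. The differences were 0.09 ± 0.45 log2 for LPS minus PBS (SE, 95% interval −0.86 to 1.04) and −0.12 ± 0.45 for DAP12KO minus UT (95% interval −1.07 to 0.83), with limma adjusted p of 0.978 and 1.00. The second probe set, 1449187_at, held the value 3.85 exactly on 7 arrays and ranged from 2.58 to 4.62. Its differences were 0.01 ± 0.40 log2 for LPS minus PBS and −0.40 ± 0.40 for DAP12KO minus UT (SE, limma adjusted p = 1.00 and 0.941). The 2 probe sets had r = 0.05 over the arrays, and −0.33 with group and year means taken out. Probe sets most alike to 1418711_at were those of Isy1 (0.87), Pdpr (0.86) and Mastl (0.86), with r of 0.56, 0.62 and 0.63 once group and year means were taken out.

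Osm, which signals through gp130 and its own receptor chain, has 1 probe set, 1438767_at. It read 8.01 (_2008), 7.59 and 6.52 (_2010) and 5.62 (_2013) in LPS arrays, against 8.83 (_2008), 6.72 and 5.89 (_2010) and 6.69 (_2013) in PBS arrays. LPS minus PBS was 0.75 in _2010, −0.83 in _2008 and −1.07 in _2013, so its sign differed between years. DAP12KO arrays read 5.62, 8.07, 6.48 and 7.21, against 8.85 and 9.80 (_2012) and 6.42, 6.43, 6.62 and 7.33 (_2013) in UT arrays. The 2 UT arrays of _2012 were the highest of the 18. The UT mean of _2013 minus that of _2012 was −2.62 log2, without overlap. The fitted differences were −0.10 ± 0.60 log2 for LPS minus PBS (SE, 95% interval −1.37 to 1.17, limma adjusted p = 0.984) and 0.15 ± 0.60 for DAP12KO minus UT (95% interval −1.12 to 1.42, limma adjusted p = 1.00). Without the year term DAP12KO minus UT took the other sign, at −0.73. Bcar3 (r = 0.89), Washc4 (0.84) and Rgs1 (0.83) had the most alike probe sets, with r of 0.59, 0.83 and 0.82 with group and year means taken out.

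Such a step between the UT arrays of 2 years, with no overlap, was also found for Igf1 1452014_a_at (_2013 minus _2012 at −0.65 log2), Pdgfb 1450413_at (−1.36) and Hgf 1451866_a_at (−3.40). Each of these had its higher values in the 2 arrays of _2012, and no test was made between them. With Osm these are 4 of the 15 factor probe sets tested, and of all probe sets tested 16.5% had no overlap between these years. The Gapdh 3' minus 5' differences of the UT arrays of these years, 0.99 to 2.23 in _2013 and 1.31 and 2.77 in _2012, overlap, and their part in the step was not tested. No DAP12KO array is from _2012, so the contrast with the year term does not use that step.

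Tgfa, a membrane-anchored ligand that is shed to bind the EGF receptor, was expressed in UT microglia on its brightest probe set, 1421943_at. LPS arrays read 6.00 (_2008), 7.62 and 6.51 (_2010) and 8.70 (_2013), against 7.49 (_2008), 4.87 and 4.82 (_2010) and 7.57 (_2013) in PBS arrays. The PBS arrays of _2010 were among the 3 lowest of the 18. In DAP12KO arrays the values were 6.91, 4.50, 5.44 and 5.82, against 7.61 and 9.27 (_2012) and 7.12, 7.69, 5.80 and 7.22 (_2013) in UT arrays. All 4 DAP12KO arrays were below the UT mean of _2013, with overlap. The difference was 1.02 ± 0.72 log2 for LPS minus PBS (SE, 95% interval −0.52 to 2.56, limma adjusted p = 0.604) and −1.29 ± 0.72 for DAP12KO minus UT (95% interval −2.83 to 0.25, limma adjusted p = 0.921). Without the 2 PBS arrays of _2010 the first was −0.18 ± 0.99 log2, which rests on 1 LPS and 1 PBS array in each of _2008 and _2013. The difference between the responses was 2.31 ± 1.02 log2 (SE, unadjusted p = 0.0389, limma adjusted p = 0.593), and 1.11 without all arrays of _2010.

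The other Tgfa probe sets were dim. On 1450421_at the value 3.23 recurred on 5 arrays, LPS arrays ranged from 2.67 to 3.23 and PBS arrays from 2.20 to 3.23. DAP12KO arrays ranged from 3.23 to 4.86, and UT arrays from 3.23 to 7.21 with a median of 3.67. On 1421942_s_at the value 2.96 recurred on 6 arrays and 16 of the 18 arrays stood between 2.89 and 3.89, apart from PBS replicate 1 of _2010 at 2.20 and UT replicate 6 of _2013 at 5.59. The 3 probe sets had r from 0.16 to 0.26 with each other, and from −0.11 to 0.26 with group and year means taken out. Their LPS minus PBS differences were 0.11 ± 0.72 and 0.09 ± 0.51 log2, and their DAP12KO minus UT differences −0.42 ± 0.72 and −0.56 ± 0.51 log2 (SE, limma adjusted p from 0.932 to 0.986). Leaving out 1 UT array turned the sign of both of the last, to 0.52 for 1450421_at without replicate 2 of _2013 and to 0.05 for 1421942_s_at without replicate 6 of _2013. Hacd4 (r = 0.74), Vps4b (0.74) and Sec31a (0.72) were most alike to 1421943_at, with r of 0.73, 0.63 and 0.54 once group and year means were taken out.

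Hgf, the ligand of Met, was read at levels that varied widely within groups. On 1451866_a_at LPS arrays read 2.55 (_2008), 3.16 and 5.24 (_2010) and 6.36 (_2013), against 2.55 (_2008), 2.57 and 2.58 (_2010) and 4.40 (_2013) in PBS arrays. DAP12KO arrays read 3.16, 7.87, 2.19 and 5.98, against 4.72 and 7.30 (_2012) and 3.16, 2.49, 2.56 and 2.25 (_2013) in UT arrays. Values near or at the floor and values above 5 thus occur within the same group. The difference was 1.30 ± 1.00 log2 for LPS minus PBS (SE, limma adjusted p = 0.637) and 2.19 ± 1.00 for DAP12KO minus UT (unadjusted p = 0.0441, limma adjusted p = 0.898). Without DAP12KO replicate 2 the second was 1.16.

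The Hgf probe set 1425379_at gave the gene its call. All 6 UT arrays stood at or under its tied value of 2.88, which it held on 7 of the 18 arrays, 4 of them UT. Only the arrays of _2008 stood well above it, with 6.62 in the LPS array and 6.27 in the PBS array, and the other 16 ranged from 2.52 to 4.48. LPS minus PBS was 0.36 in _2008, 0.91 in _2010 and 0.17 in _2013, and 0.59 ± 0.40 log2 in the fit (SE, limma adjusted p = 0.587). DAP12KO minus UT was 0.38 ± 0.40 log2 (SE, limma adjusted p = 0.945). The third probe set, 1442884_at, was at 2.19 on 15 arrays, and at 2.44 in DAP12KO replicate 1 and 2.27 and 2.89 in UT replicates 4 (_2012) and 6 (_2013). Over the arrays 1451866_a_at and 1425379_at had r = −0.12, and 0.55 with group and year means taken out. The probe sets most alike to 1451866_a_at were those of 4933432I03Rik (r = 0.81), 1700094D03Rik (0.81) and Bnip2 (0.80).

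**Figure D5:**
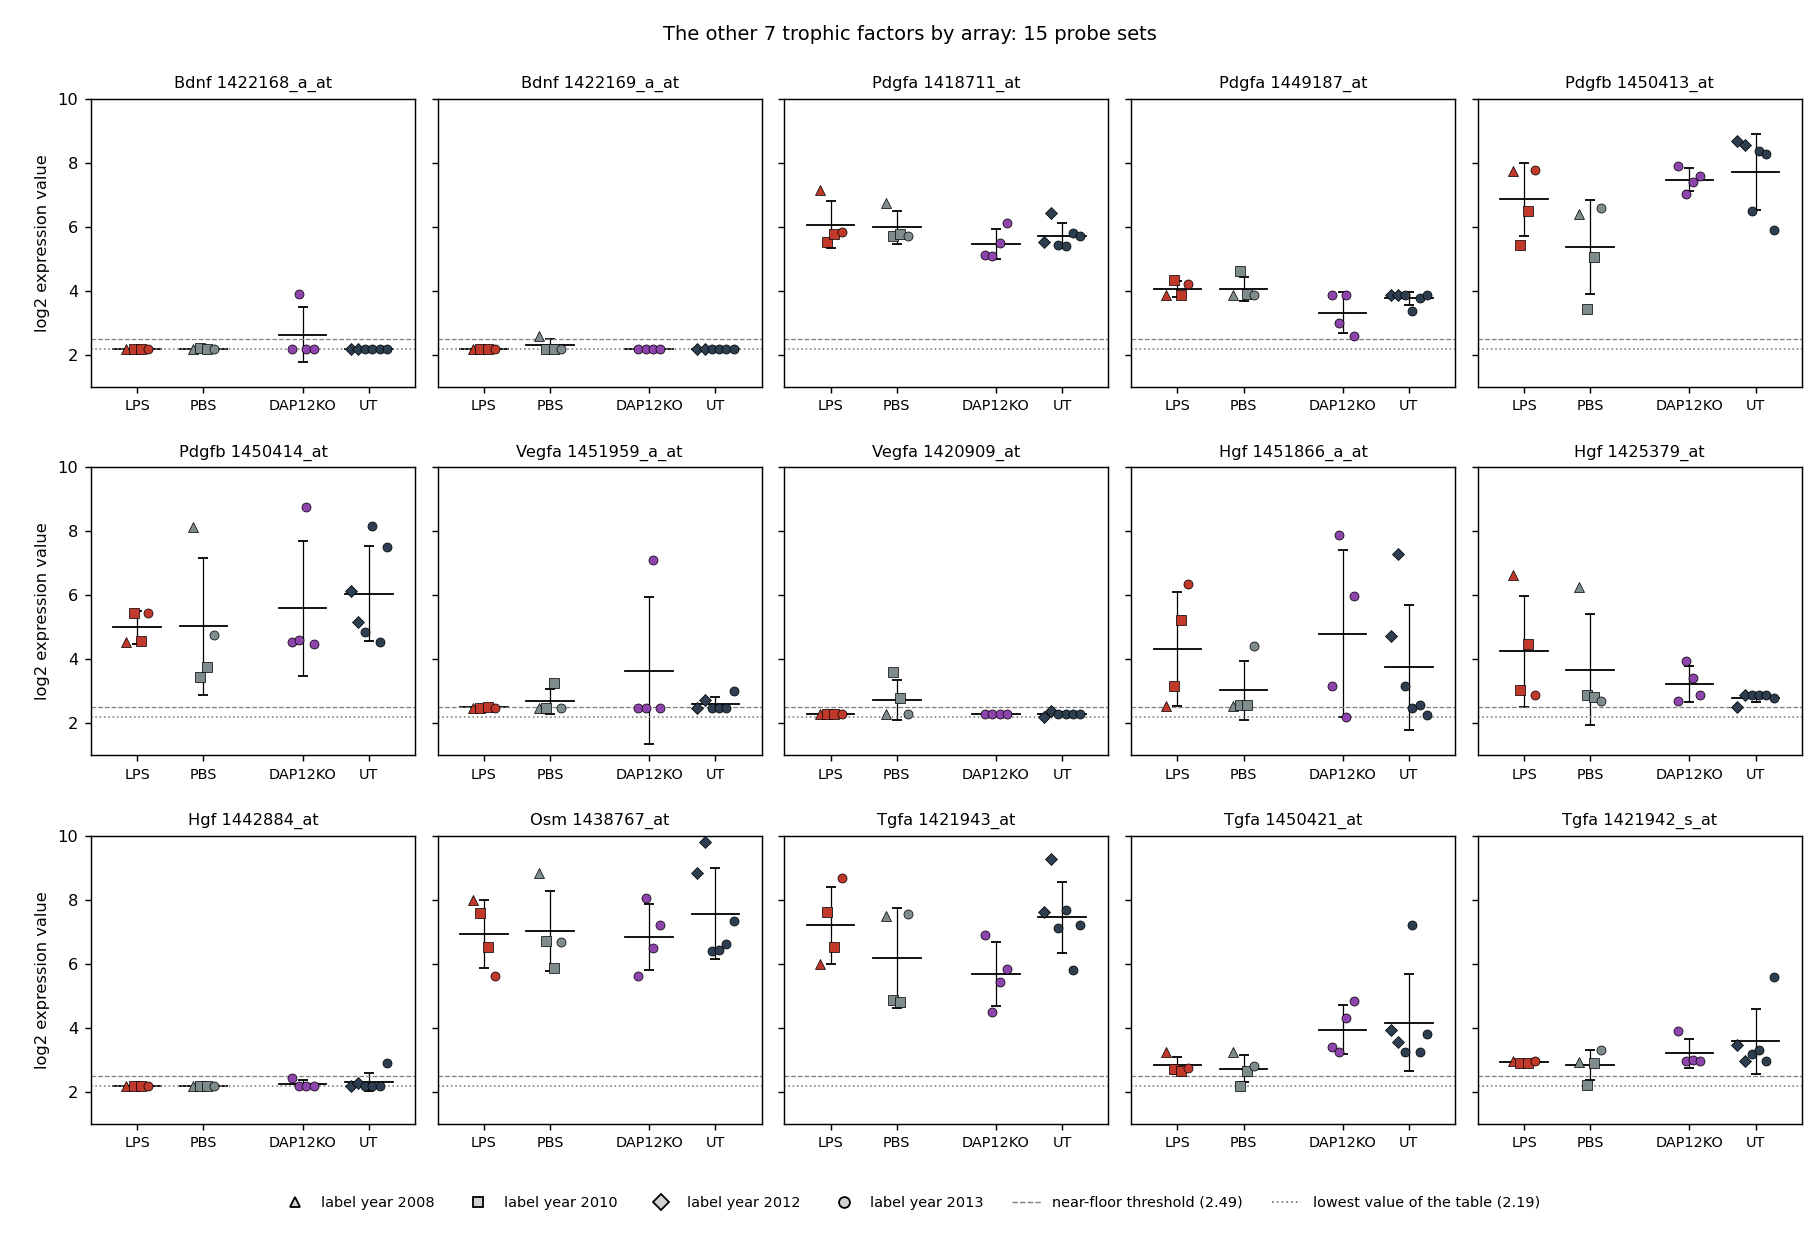
The other 7 factors on each array, 1 panel per probe set, with the log2 expression value on the y axis and the groups LPS, PBS, DAP12KO and UT on the x axis. Points are arrays with the marker shape giving the label year, lines and bars are the mean and SD, the dashed line is the near-floor threshold (2.49) and the dotted line the lowest value of the table (2.19). Pdgfa 1418711_at, Pdgfb, Osm and Tgfa 1421943_at stand above the lines on every array, Bdnf lies on the dotted line on 16 of 18 arrays per probe set, and Vegfa 1451959_a_at has 1 array at 7.10.

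Vegfa stood at a constant low value on most arrays. Its probe set 1451959_a_at held 2.49 exactly on 13 of the 18 arrays, just under the near-floor threshold. It was above that in LPS replicate 2 of _2010 (2.52), PBS replicate 2 of _2010 (3.26), DAP12KO replicate 4 (7.10) and 2 UT arrays, the highest of them at 3.02. The DAP12KO minus UT difference was 1.02 ± 0.78 log2 (SE, limma adjusted p = 0.923), and −0.13 without DAP12KO replicate 4. The other probe set, 1420909_at, held 2.28 on 13 arrays and reached 3.60 and 2.78 in the PBS arrays of _2010.

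Bdnf was near the floor. Each of its probe sets, 1422168_a_at and 1422169_a_at, stood at the table's lowest value on 16 of 18 arrays, among them all 4 LPS and all 6 UT arrays. The exceptions above 2.49 were DAP12KO replicate 2 on the first (3.91) and PBS replicate 4 of _2008 on the second (2.58), each 1 array of 18 and not shared by the other probe set. A level at the floor is only a bound on these arrays, so no fold is given.

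Genes around the factors were read from 6 lists, 1 probe set of highest mean per gene. None of their 77 tested genes passed at 0.05 in LPS minus PBS or in DAP12KO minus UT, so the 2 of lowest p are named per list and comparison, with SEs and limma adjusted p. Of 20 receptors 14 were tested, with a median difference of −0.33 log2 in LPS minus PBS and −0.03 in DAP12KO minus UT. The Bdnf receptor Ntrk2 had 4.22 ± 0.68 in LPS and 6.41 ± 1.71 in PBS arrays (SD, n = 4 each), a difference of −2.20 ± 0.51 (SE, limma adjusted p = 0.119). Within years it was −3.87, −2.40 and −0.12. Igf2r, which binds Igf2 for degradation, had 1.30 ± 0.61 (SE, limma adjusted p = 0.403), with 4.75, −0.21 and 0.89 within years. It stood above the near-floor threshold on all 4 LPS but on only 3 of the 4 PBS arrays. Its difference is thus in part a bound. Igf1r, the receptor of Igf1, had 9.53 ± 0.43 in DAP12KO (SD, n = 4) and 8.80 ± 0.66 in UT arrays (SD, n = 6). The fitted difference was 0.99 ± 0.40 (SE, limma adjusted p = 0.873), and for Lifr, a receptor chain of the IL-6 family, it was −0.68 ± 0.42 (0.921).

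Of 23 binding and processing proteins 14 were tested, with medians of −0.11 (LPS minus PBS) and −0.04 (DAP12KO minus UT). The convertase Pcsk5 was at 2.19 to 2.22 on average in LPS, DAP12KO and UT arrays and averaged 4.88 ± 1.79 in PBS arrays (SD, n = 4). Its difference of −2.68 ± 0.47 (SE) had a limma adjusted p of 0.0526, just above the threshold, and within years it was 0 (_2008, both arrays at the floor), −3.63 and −3.45. All 4 LPS arrays and 1 of the 4 PBS arrays were near the floor, so these differences are bounds set by the floor and not measured changes. Igfbp5, an IGF binding protein, had −4.50 ± 1.40 (0.212), with −7.62, −3.56 and −3.24 within years. It stood above the near-floor threshold on all 4 PBS arrays but on only 2 of the 4 LPS arrays. Its difference is thus in part a bound. In DAP12KO minus UT the syndecan Sdc4 had −1.07 ± 0.51 (0.898) and the IGF binding protein Igfbp4 −0.49 ± 0.26 (0.921).

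Of 22 relatives of the factors 17 are on the array and 6 were tested, with medians of 0.24 and −0.17. The vessel factor Vegfc had −2.13 ± 0.71 (SE, limma adjusted p = 0.238) and the neuregulin Nrg1 −1.18 ± 0.49 (0.340) in LPS minus PBS. Vegfc stood above the near-floor threshold on 1 of the 4 LPS and 2 of the 4 PBS arrays. Its difference is thus in part a bound. All 4 LPS and all 4 DAP12KO arrays of Nrg1 were near the floor, so the differences of Nrg1 are bounds. Within _2010 the differences were −4.26 and −2.37 and in the other years between −0.02 and 0, and the PBS arrays of that year are the ones high in neuron and stromal markers. In DAP12KO minus UT Igf2 had −2.77 ± 1.12 (0.873) and Nrg1 −0.48 ± 0.49 (0.943). Igf2 stood above the near-floor threshold on 3 of the 4 DAP12KO and all 6 UT arrays, so its difference is in part a bound.

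Other secreted factors attributed to microglia, 13 tested of 17, had medians of 0.30 and 0.16. The heparin-binding growth factors Mdk and Ptn had −2.38 ± 0.51 (SE, limma adjusted p = 0.0931) and −2.14 ± 0.50 (0.119) in LPS minus PBS. Both were below 0 in each year, Mdk with −4.14, −2.18 and −1.0 and Ptn with −2.87, −2.30 and −1.09. Neural progenitors express both genes, and the progenitor markers were highest in the PBS arrays of _2010. Both differences were largest in _2008, when the progenitor markers averaged 6.65 in the LPS array and 7.45 in the PBS array. The part of progenitors in these differences was not tested. The cytokine Tnf had 2.69 ± 0.89 (0.779) and the matrix protein Thbs1 2.17 ± 0.75 (0.798) in DAP12KO minus UT.

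Of 18 hypoxia response genes, the setting in which Vegfa is known to be induced, 17 were tested, with medians of −0.26 and 0.02. Adm, a vasodilator peptide, had −1.70 ± 0.72 (SE, limma adjusted p = 0.350) and the glycolytic enzyme Pgk1 −0.52 ± 0.24 (0.382) in LPS minus PBS. Within years Adm had 0, −3.39 and 0, so its difference lay in _2010, the year of the PBS arrays that stand apart. Adm stood above the near-floor threshold on 2 of the 4 LPS and 2 of the 4 PBS arrays. Its values of 0 can thus stand for arrays at the floor. Pgk1 had −1.49, −0.10 and −0.39 within years. In DAP12KO minus UT Epas1, which encodes HIF-2 alpha, had −2.63 ± 0.98 (0.812) and Ankrd37 −0.72 ± 0.59 (0.925). For Epas1 all 4 DAP12KO arrays and 4 of the 6 UT arrays were near the floor, so the value is a bound. Of 16 genes of the STAT and growth hormone axis, which acts on Igf1 in liver, 13 were tested, with medians of −0.19 and −0.25. The feedback inhibitor Socs2 had −1.92 ± 0.86 (0.377) and the adaptor Irs2 −0.77 ± 0.36 (0.401) in LPS minus PBS, with −2.68, −2.76 and 0.50 and with −1.25, −0.93 and 0.06 within years. The repressor Bcl6 had −2.28 ± 0.90 (0.847) and Stat5a −1.78 ± 0.82 (0.898) in DAP12KO minus UT. Stat5a stood above the near-floor threshold on 3 of the 4 DAP12KO and all 6 UT arrays, so its difference is in part a bound.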

How the data were processed

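The authors deposited log2 expression values of 45101 probe sets. The submitters' processing notes name RMA (background correction, normalization, probe summary) but no variant. RNA was amplified with Ovation Pico WTA v2 and labelled with Encore Biotin, per the labels' protocols. The values were used as deposited. The platform annotation gave 34958 probe sets 1 gene, 932 several and 9211 none. Probe sets whose mean over 18 arrays was under the 40th percentile of all means (2.49) were left out, which left 22512.

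The 18 arrays were fitted together in limma 3.58.1 (R 4.3.3) with group means, label year as a batch term, a variance prior following intensity and 11 residual degrees of freedom. Tests are two-sided with Benjamini-Hochberg adjustment, and intervals are unadjusted. The fit was tested on simulated data with 200 of the 22512 probe sets shifted. In LPS minus PBS it recovered 6 of 200 at a shift of 1 log2, 48 at 2 and 157 at 4. In DAP12KO minus UT it recovered 4, 56 and 166. False calls numbered 0 to 13. A probe set that was not called can therefore still have changed. The number of arrays limits the precision, and levels of different probe sets are not compared between genes. Within a gene they are used only to order or choose its probe sets. Named list genes are the 2 of lowest p per list and comparison, and alike genes the 3 of highest r. Alternatives covered the filter, probe sets per gene, year term, arrays fitted, variance prior, array weights, low values, quantile normalization, replicate block and arrays left out. The factors, lists and rules were chosen with earlier results of these data known. Figures used matplotlib 3.10.9 and Python 3.11.15.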

Additional observations from a re-analysis of the deposited data

Results flagged for a closer look

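Of 76 groups of 4 to 6 arrays of 1 factor probe set, 20 held an array far from the rest by Dixon's test at the 95% level. Chance gives about 1 in 20 groups, and groups in which all but 1 array share a tied low value are counted by construction. Some flags are slight, such as 2.2828 against 2.2820 for Vegfa 1420909_at in LPS arrays. The share flagged over all probe sets is not given here, so the count is not read as a trait of these factors. For Bdnf these were DAP12KO replicate 2 on 1422168_a_at (3.91) with PBS replicate 1 of _2010 (2.20), and PBS replicate 4 of _2008 on 1422169_a_at (2.58). For Vegfa 1451959_a_at they were LPS replicate 2 of _2010 (2.52), PBS replicate 2 of _2010 (3.26) and DAP12KO replicate 4 (7.10), and for 1420909_at LPS replicate 1 of _2010 (2.28).

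DAP12KO replicate 4 was also the highest of its group for Pdgfb 1450414_at (8.76), against 4.60 for the next. For Pdgfa, PBS replicate 4 of _2008 stood highest on 1418711_at (6.74). On 1449187_at PBS replicate 1 of _2010 was highest (4.62) and UT replicate 2 of _2013 lowest (3.37).

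For Hgf, PBS replicate 2 of _2013 was highest on 1451866_a_at (4.40) and PBS replicate 4 of _2008 on 1425379_at (6.27), where UT replicate 3 of _2012 was lowest (2.52). On 1442884_at DAP12KO replicate 1 (2.44) and UT replicate 6 of _2013 (2.89) stood highest. For Tgfa 1450421_at the arrays were LPS replicate 3 of _2008 (3.23) and UT replicate 2 of _2013 (7.21), and for 1421942_s_at DAP12KO replicate 1 (3.89) and UT replicate 6 of _2013 (5.59). None of the 4 Igf1 probe sets, Osm, Pdgfb 1450413_at or Tgfa 1421943_at held such an array.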

How the results depend on the processing

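Of 1308 alternative values for the 45 factor differences, 1 passed the threshold, and 78 (in 25 differences) had another sign than the value reported. With array weights Igf1 1452014_a_at was higher in LPS than in PBS by 0.82 ± 0.21 log2 (SE, limma adjusted p = 0.0228), so 1 factor probe set was called, when 1968 of all probe sets were. Over its 31 alternatives the adjusted p ran from 0.0228 to 1.00 and the value from −0.19, without all arrays of _2010, to 0.84, without the LPS array of _2008. Pdgfb 1450413_at kept its sign in LPS minus PBS under all alternatives, with 1.12 to 1.77 when 1 array was left out. So did both tested Hgf probe sets, with 0.23 to 0.81 for 1425379_at and 0.82 to 1.73 for 1451866_a_at. At the 60th percentile 8 probe sets were called expressed in UT, in place of 13, and by the probe set of highest mean 5 genes were, in place of 6. Probe sets called of all in LPS minus PBS, 6 as reported, were 0 with the 60th percentile filter or only the 2 groups compared, 1 without the year term or with the replicate block, and 11 with 1 probe set per gene. They were 14 with quantile normalization, 11 without all arrays of _2010, 21 without the 2 PBS arrays of _2010 and 203 with arrays of _2013 only, where the lone LPS and PBS arrays are assumed to vary like the other groups. Leaving out 1 array gave 1 to 243, with 243 without LPS replicate 3_2 and 233 without PBS replicate 2 of _2013, and 141 without the LPS and 144 without the PBS array of _2008. The block pairs same-numbered arrays of 1 year, LPS with PBS in _2010 and DAP12KO with UT in _2013. The labels do not state that the number marks shared material. Deviations of same-numbered arrays of _2010 had r = 0.52, and those of DAP12KO and UT arrays −0.01 and 0.00. With 2 arrays per group in _2010, both pairs give the same r by construction. For DAP12KO minus UT, 0 as reported, leaving out 1 array gave 0 to 5. For the difference between the responses, 1 as reported, the counts were 2 with no filter, 0 with the 60th percentile filter or 1 probe set per gene, 55 with array weights, 4 without all arrays of _2010 or without its 2 PBS arrays, 148 with arrays of _2013 only and 0 to 32 when 1 array was left out. The cause of these changes was not tested. Of the 77 listed genes, 0 as reported in LPS minus PBS, Pcsk5 passed with 1 probe set per gene, Pcsk5 and Pdgfc with arrays of _2013 only, and 10 genes with array weights. Pcsk5, Mdk and Ntrk2 passed when either of the _2013 arrays of these groups was left out, and Pcsk5 and P4ha1 when either of those of _2008 was. These counts of listed genes were added after the data were seen.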
